A study of Mus musculus with 8 samples.

Results

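The response of wild-type NMuMG cells to transforming growth factor β (TGFβ) was read from 4 of the 8 RNA sequencing libraries of the study. NMuMG is an established line of mouse mammary epithelium and a common model of the epithelial-to-mesenchymal transition (EMT) that follows TGFβ. The labels give these 4 libraries the RREB1 genotype WT, and the other 4 the genotype KO, with the code KO1 in every KO column. All cells were starved of serum for 6 h. In each genotype 2 libraries came from cells given 2.5 µM SB505124, an inhibitor of the kinase of the TGFβ type I receptor, for 6 h, and 2 libraries from cells given 100 pM TGFβ for 1.5 h. The comparison is therefore of TGFβ with a blocked receptor, not with untreated cells, and the agent and the length of the treatment changed together, so their parts cannot be told apart. Nothing in the labels says that the 2 libraries of a group came from separate cultures; p-values then measure the spread between libraries, which may be technical. Of 18102 genes in the table, 12498 had a mean value of at least 10 over the 8 libraries and were tested with limma on log2(value + 1). All values below are normalised counts, which are reads divided by the size factor of the library, and a gene is called where its Benjamini-Hochberg adjusted p is under 0.05.

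TGFβ signals through a pair of receptor kinases that phosphorylate SMAD2 and SMAD3. These join SMAD4, enter the nucleus and bind short DNA elements, usually together with partner factors such as AP-1. Among the earliest transcripts to change are those of inhibitors of the pathway itself, such as SMAD7, and of the transcription factor SNAIL, a repressor of the E-cadherin gene and a starter of EMT.

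The 4 libraries held 25144204 to 27708227 reads. The first principal component of their values (82.4% of the variance) separated the treatments. The ribosomal precursor transcript Rn45s took 1.06% of the reads of WT TGFβ replicate 1, against 0.614% to 0.743% of the other 3 WT libraries, and its part in the results was not tested. The label of mammary epithelium was checked against epithelial and luminal markers. Krt8, Krt18, Krt19, Cd24a and Cdh1 were abundant. In these libraries, however, Cldn7 was at 1.14 to 2.11, Elf5 at 0 to 1.14 and Ovol2 at 0 to 2.11. Epcam was at 8.11 and 4.01 under SB505124 and at 24.2 and 36.6 under TGFβ. It was at 0 in all 4 KO libraries and missed the level filter, which takes the mean of all 8 libraries. Genes nearly silent in the KO libraries can miss this filter though read in WT, and the counts below leave them out. Of the 10 luminal markers in the table, 4 passed the level filter, as did 3 of 8 basal, 3 of 8 fibroblast, 5 of 9 leukocyte, 1 of 6 endothelial and 2 of 5 adipocyte markers.

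The response was broad. Under TGFβ 2520 genes were higher (20.2% of those tested) and 2896 lower (23.2%). The WT libraries of the groups did not overlap for 5413 of these 5416 genes. The calls rest on the same libraries, so this count adds no support of its own. The share without overlap over all tested genes was not counted. Most changes were small: the median absolute log2 fold change over all tested genes was 0.256, against a median absolute difference between replicates of 0.0956 under SB505124 and 0.141 under TGFβ. At least 2-fold higher were 455 genes (3.64%) and at least 2-fold lower were 295 (2.36%). The larger changes were mostly rises: 144 genes rose and 30 fell at least 4-fold, 47 rose and 3 fell at least 8-fold, and 20 rose and 1 fell at least 16-fold, by fitted values, which for genes near 0 depend on the pseudocount. The 3 that fell at least 8-fold were Arid5b, Abca6 and the pseudogene Gm1943, the last being at 0 in both TGFβ libraries; Abca6 and Gm1943 were picked for naming after their values were seen. Of the 455 genes, 96 had a mean under 10 with the receptor blocked, 165 a mean of 10 to 100, 137 of 100 to 1000 and 57 of at least 1000. Together they took 0.849% and 0.805% of normalised reads in the SB505124 libraries and 2.92% and 2.63% in the TGFβ libraries. The 295 lowered genes went from 0.893% and 0.870% to 0.340% and 0.338%.

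**Figure D1:**
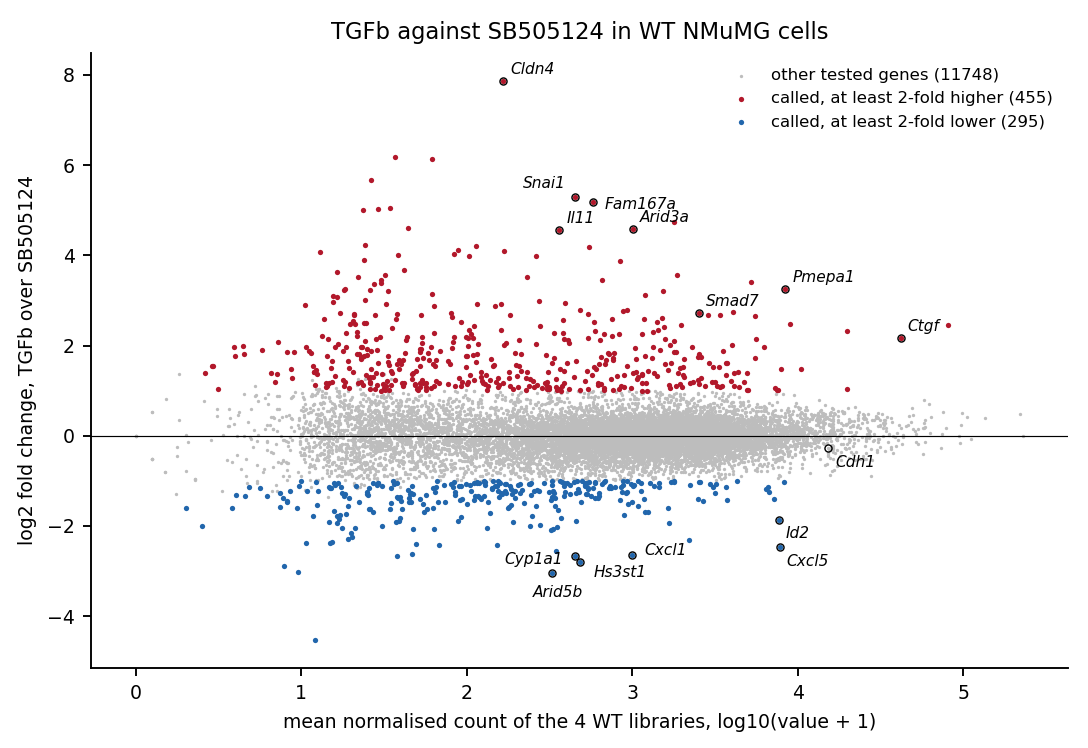
Each point is 1 of 12498 tested genes; the x axis is its mean normalised count in the 4 WT libraries as log10(value + 1) and the y axis its log2 fold change, TGFβ over SB505124. Red points are the 455 genes called at least 2-fold higher and blue points the 295 called at least 2-fold lower; ringed genes are named, from Cldn4 at 7.86 to Arid5b at -3.04, with Cdh1 close to 0 at -0.27.

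Snai1, which encodes SNAIL and lies at chr2:167538195-167542814 (GRCm38, + strand), had normalised counts of 24.3 and 19.0 under SB505124 and 936 and 826 under TGFβ. The groups lie far apart, and the log2 fold change was 5.29 ± 0.33 (SE; limma adjusted p = 3.21e-10). Smad7, the inhibitory SMAD at chr18:75367529-75395935, went from 709 and 633 to 4505 and 4278, a 6.55-fold rise (limma adjusted p = 1.31e-14). Skil, which encodes the SMAD co-repressor SnoN, went from 937 and 890.2 to 5573 and 6125, or 6.39-fold. Il11, a cytokine of the interleukin 6 family, was at 28.4 and 28.0 and then at 758 and 629, 23.7-fold higher. Has2, a hyaluronan synthase, had 1 read in the SB505124 libraries together and normalised counts of 50.5 and 38.9 under TGFβ. That is a ratio of 89.2 with an exact 95% counting interval of 15.6 to 3566; 182 exon bases of Has2 overlap the antisense gene Has2os, whose reads an unstranded kit does not separate. Rreb1 itself, which encodes a zinc finger factor that acts with SMADs, rose 1.78-fold, from 1055 and 1033 to 1959 and 1769.

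Cdh1, the E-cadherin gene, was 17134 and 16398 under SB505124 and 14685 and 13123 under TGFβ. The groups do not overlap but lie close together, and the log2 fold change was -0.27 ± 0.09 (limma adjusted p = 0.0192), a call that was lost in 7 of 20 alternatives, among them those without WT SB505124 replicate 1, WT SB505124 replicate 2 or WT TGFβ replicate 2 (limma adjusted p up to 0.244). In the same libraries Snai1 was 39.1-fold higher and Cdh1 1.21-fold lower.

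Beside these genes, the 15 largest rises among genes with an established name and a mean of at least 100 in the higher group were mixed in function. Cldn4, a claudin of tight junctions, had 1 read under SB505124 in both libraries together and 359 and 301 under TGFβ (ratio 657, interval 117 to 25994). Lce1f, of the late cornified envelope, went from 2 reads to 115 and 127 (ratio 120, interval 32.7 to 994). Fam167a went from 28.4 and 32.0 to 1130.5 and 1116, or 36.1-fold. These 3 genes were low in both SB505124 libraries and plainly read in both TGFβ libraries. The DNA-binding factors Arid3a and Arid5a rose from 85.1 and 75.1 to 2102 and 1762 and from 62.8 and 50.1 to 1084 and 992. G0s2, an inhibitor of the lipase ATGL, rose 18.3-fold to 219 and 208. Birc7, of the inhibitor of apoptosis family, rose 17.5-fold, the fructose transporter gene Slc2a5 17.2-fold, the serotonin receptor gene Htr1d 16.4-fold, the urocortin gene Ucn2 15.8-fold and the serine protease gene Prss22 15.8-fold. Nfatc2, a calcineurin-dependent transcription factor, went from 101 and 113 to 1628 and 1528, and Lmcd1, which encodes a LIM domain protein, from 291 and 296 to 3485 and 3436.

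The largest falls, chosen the same way, took several regulators of signalling. Arid5b, a DNA-binding factor that recruits a histone demethylase, went from 603 and 559.7 to 66.3 and 73.1, 8.24-fold lower (limma adjusted p = 2.74e-13). Its relative Arid5a moved the other way. Hs3st1, a heparan sulfate sulfotransferase, fell from 843 and 841 to 121 and 118, and Cyp1a1, the classical target of the aryl hydrocarbon receptor, from 785 and 785 to 126 and 118. The neutrophil chemokine genes Cxcl1 and Cxcl5 fell 6.21-fold and 5.56-fold, the latter from 13306 and 13028 to 2374 and 2360.2, and Ccl20, a ligand of CCR6, fell 4.95-fold. In all of these the replicates lay far closer to each other than the groups did. Genes with overlapping groups had been left out of the choice, so separated groups were a condition of it. Rgs2, which speeds GTP hydrolysis by G proteins, was 5.89-fold lower, the kinase gene Map3k13 5.39-fold, the serotonin receptor gene Htr1b 5.38-fold and the GTPase activating gene Dlc1 4.23-fold. Bmp4 fell 4.17-fold, Exph5 4.17-fold, the glycoprotein hormone gene Stc1 4.13-fold, the receptor kinase antagonist gene Spry1 4.06-fold and Samd5 3.97-fold. Exons of Map3k13, Htr1b and Bmp4 overlap those of another gene by 227, 350 and 89 bases, so their reads are not fully their own.

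**Figure D2:**
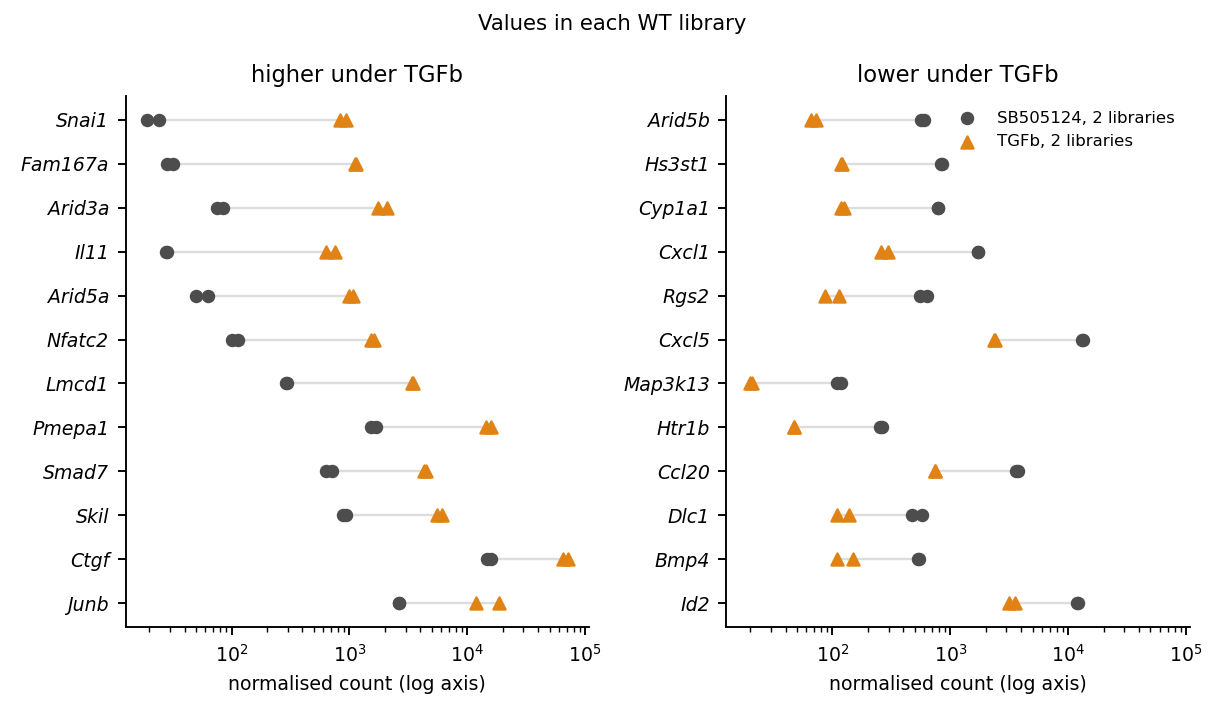
Each row is a gene and each point 1 WT library, on a log axis of normalised counts; grey circles are the 2 SB505124 libraries and orange triangles the 2 TGFβ libraries. In all 24 genes the circles and triangles do not overlap, but most were chosen among genes whose groups do not overlap. The separation is therefore part of the choice and no result. Junb shows the widest gap between its TGFβ replicates, 18619 and 11839.7.

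RefSeq promoter sequences on GRCm38.p6 (250 bases before to 50 after a transcription start) were matched to 9815 tested genes, among them 335 of the 455 raised and 226 of the 295 lowered genes. A gene with several starts gave several windows, 12520 for the tested genes, so the windows counted below are not 1 per gene. Of the motifs searched, the AP-1 element TGANTCA (which reads the same on both strands apart from its central base) was in 12.3% of the 455 promoter windows of raised genes, 8.14% of the 295 windows of lowered genes, 5.47% of the windows of all tested genes and 7.81% of all 32851 windows. Of the genes named for their role, size of change or level, raised or lowered, 28 had a promoter. Among these, 3 raised genes had a match in the bases before a start, Cldn4, F3 and Il11. Their windows are printed because they carry that element. The windows of Snai1, Junb, Arid5a, Nfatc2, Lmcd1 and G0s2, also raised, held no match. F3 encodes tissue factor, the receptor that starts coagulation, and rose from 6887 and 6225 to 34404 and 31375. Capitals mark TGANTCA and, in Cldn4, CAGACA (the SMAD box, here on the opposite strand as TGTCTG), and the sequences read 5′ to 3′ in the direction of the gene.
Cldn4, chr5:134946935-134947184, - strand: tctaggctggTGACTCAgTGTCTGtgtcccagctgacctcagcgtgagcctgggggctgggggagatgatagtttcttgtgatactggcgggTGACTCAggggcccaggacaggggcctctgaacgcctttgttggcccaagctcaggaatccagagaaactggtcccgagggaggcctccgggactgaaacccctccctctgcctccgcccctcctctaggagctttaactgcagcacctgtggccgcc
F3, chr3:121723287-121723536, + strand: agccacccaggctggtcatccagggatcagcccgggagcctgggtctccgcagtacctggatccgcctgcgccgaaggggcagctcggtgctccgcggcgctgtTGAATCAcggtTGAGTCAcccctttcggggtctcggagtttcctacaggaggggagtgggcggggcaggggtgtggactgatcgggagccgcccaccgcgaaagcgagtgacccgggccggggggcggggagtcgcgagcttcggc
Il11, chr7:4778142-4778391, - strand: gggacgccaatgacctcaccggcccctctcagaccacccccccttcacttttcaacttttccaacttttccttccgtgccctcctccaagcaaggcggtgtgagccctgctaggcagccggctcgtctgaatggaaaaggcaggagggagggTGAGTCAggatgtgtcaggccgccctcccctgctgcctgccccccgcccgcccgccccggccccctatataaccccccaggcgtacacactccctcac
The AP-1 matches begin 240 and 158 bases before the start of Cldn4, 146 and 135 before that of F3, and 98 before the inner of 2 starts of Il11. In F3, 116 bases of the window are annotated as an exon of Gm43823, a transcript to be experimentally checked. In Cldn4 the SMAD box begins 8 bases after the first base of the more distant AP-1 match. A SMAD box without an AP-1 match was in a window of the raised genes Arid5a, Nfatc2, Birc7, Slc2a5 and Rreb1 and of the lowered gene Cyp1a1. CAGACA is short and was found on either strand in 22.9% of windows of raised genes, 16.6% of those of lowered genes, 16% of those of tested genes and 21% of all windows. The longer CAGA box AGCCAGACA, which contains CAGACA, was in 3 windows of raised genes (0.659%) and none of lowered genes, against 0.288% of tested genes, and the palindrome GTCTAGAC was in 2 (0.44%) and none, against 0.232%. The ETS element CCGGAAGT went the other way, in 0.879% of windows of raised genes, 3.05% of lowered and 8.19% of tested genes. In the same order the TEAD element GGAATG was in 14.9%, 12.9% and 12.3%, the Snail E-box CACCTG in 21.5%, 16.6% and 17.9%, and the cyclic AMP element TGACGTCA in 3.08%, 3.05% and 3.08%. The TATA box TATAAA on the strand of the gene was in 6.15%, 7.46% and 4.45%, and the core element TNGCGTG of the aryl hydrocarbon receptor in 3.96%, 5.76% and 7.88%. These shares are descriptions of letters in short windows, without a test.

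Gene lists were drawn up by role, and their called members are given beside the 20.2% of tested genes called higher and 23.2% called lower. The median log2 fold change of all tested genes was -0.01. Among the list members named below, exons of Fosl1 overlap those of Ccdc85b by 1163 bases and exons of Kif20a those of Cdc23 by 1271, and those of Eng, Irs2, Wnt7b, Bhlhe40, Rpl32 and Ndufs1 overlap another gene by 61 to 248 bases, so that their values are uncertain to that extent.

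**Figure D3:**
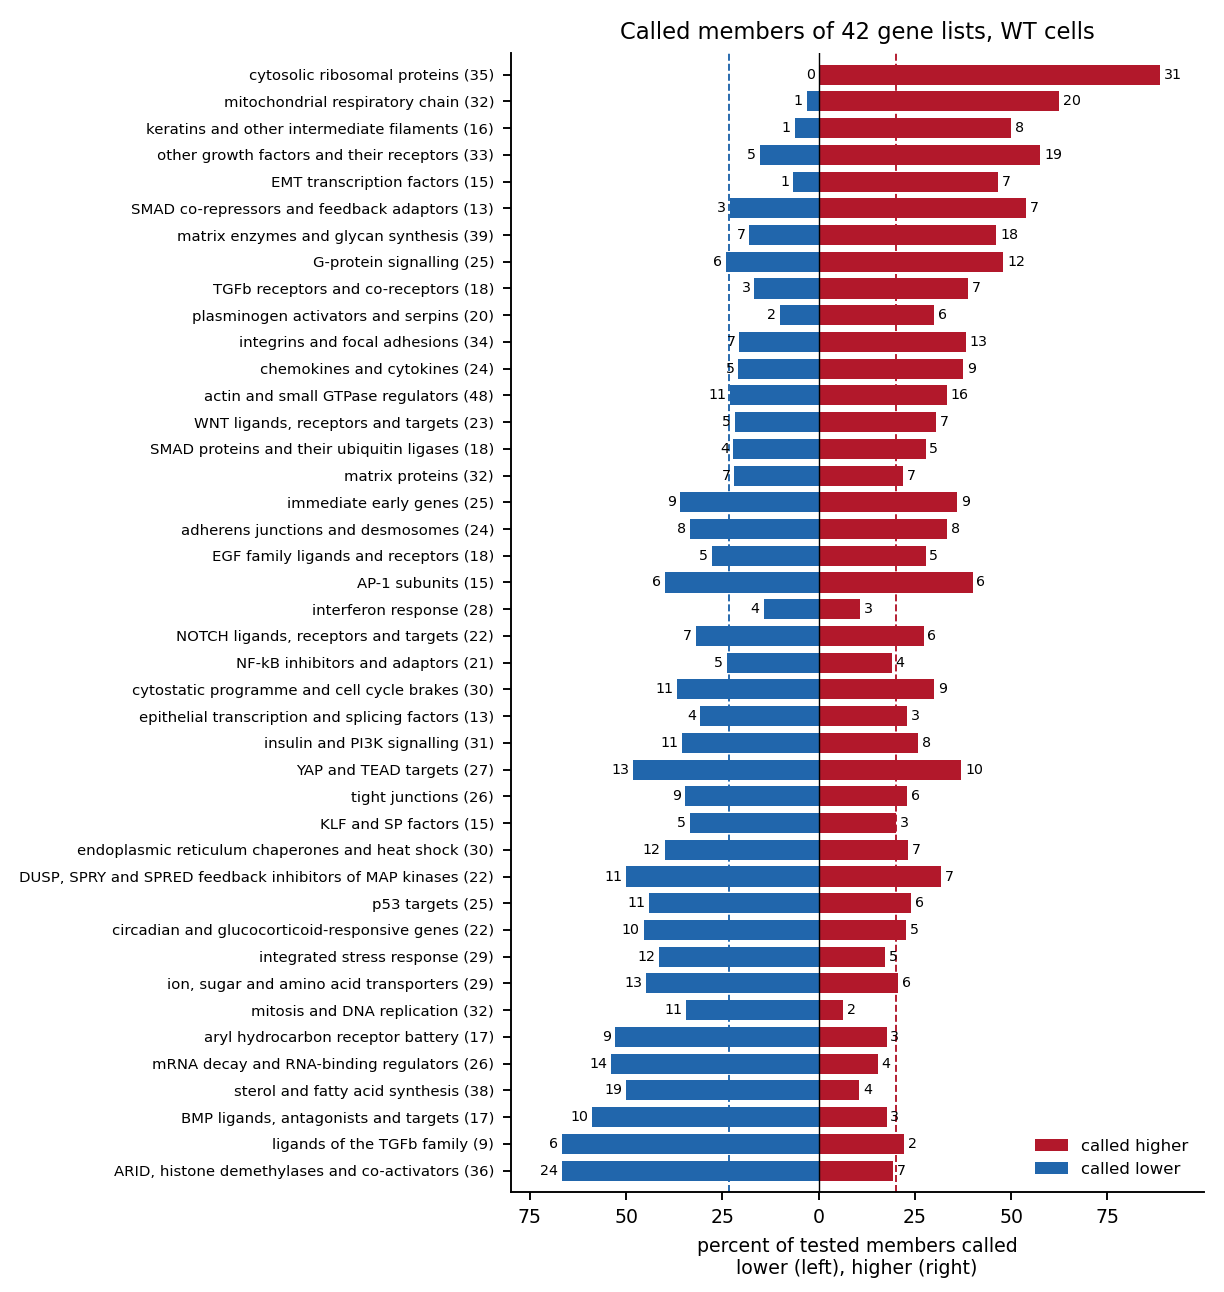
Bars give the percent of tested members of each of 42 gene lists called lower (blue, left) and higher (red, right) under TGFβ in WT cells, with the number of genes at the bar ends and the number tested in brackets; dashed lines mark 20.2% and 23.2% of all tested genes. The ribosomal proteins stand at the top with 31 of 35 higher and the ARID, demethylase and co-activator list at the bottom with 24 of 36 lower.

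At the start of the pathway, 6 of 9 tested members of the list of TGFβ family ligands fell and 2 rose (median log2 fold change -0.56). The 2 that rose were Tgfb1 and Bmp1, and Bmp1 encodes a protease and no ligand. The ligand genes Bmp2 and Bmp4 are counted in the BMP branch below. Without WT SB505124 replicate 2, 3 fell, and without it, WT SB505124 replicate 1 or WT TGFβ replicate 1, 1 rose. Inhba, a subunit of activin, went from 764 and 727 to 344 and 323, and Inhbb, its relative, from 1271 and 1263 to 741 and 634. Bmp1, a protease that frees and matures matrix proteins, rose from 3735 and 3288 to 5705 and 4733. Among receptors and co-receptors, 7 of 18 rose and 3 fell. The type I receptor gene Tgfbr1 rose 2.12-fold, from 2224 and 2097 to 4809 and 4372, and Acvr1, which encodes a receptor for BMPs and activin, 3.53-fold to 4037 and 3830.0. Itgb6, the integrin subunit whose αvβ6 form releases TGFβ from its latent complex, rose 3.25-fold to 3133 and 3175. The co-receptor gene Eng rose from 19.3 and 29.0 to 111 and 81.1. Acvr1b, the type I receptor of activin, fell from 593 and 599 to 338 and 249. Also called lower, by less than 2-fold, were Acvr2a and Tgfbr2, the gene of the TGFβ type II receptor, so the genes of the TGFβ receptor pair parted.

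Of the SMADs and the ubiquitin ligases that act on them, 5 of 18 rose and 4 fell. Beside Smad7, Smad3 rose by 0.48 ± 0.08 on the log2 scale (from 3570.0 and 3661 to 4932 and 5136) and the ligase gene Smurf1 by 0.57 ± 0.08. The deubiquitinase gene Usp9x fell from 9808 and 10150.2 to 4784 and 5659.8. With the change adjusted for transcript length, 9 rose and 1 fell, and without WT SB505124 replicate 2 or WT TGFβ replicate 1, 2 fell. Co-repressors and feedback adaptors moved more: 7 of 13 rose and 3 fell (median 0.60). Pmepa1, a membrane adaptor that holds SMADs away from the receptor, went from 1671 and 1539 to 16003 and 14414, or 9.46-fold. Spsb1, a ligase subunit that targets the type II receptor, rose 9.26-fold to 2843 and 2727, and Ski, the relative of Skil, 3.07-fold to 5695 and 5455. Tgif1, a homeodomain co-repressor, rose 1.52-fold.

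In the BMP branch 10 of 17 tested members fell and 3 rose (median -0.40). Id2, an inhibitor of basic helix-loop-helix factors and a standard BMP target, went from 11951 and 12192 to 3158 and 3510.0, 3.62-fold lower. Atoh8, another BMP-responsive factor, fell from 79.1 and 85.1 to 14.7 and 14.9, and Grem1, a secreted BMP antagonist, from 60.8 and 68.1 to 8.42 and 10.3. The ligand genes Bmp2 and Bmp4 parted: Bmp2 rose 4.43-fold, from 133 and 152 to 631 and 635, while Bmp4 fell from 530.1 and 541 to 148 and 109.7.

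Of EMT transcription factors 7 of 15 rose and 1 fell. After Snai1 came Sox9, which went from 103 and 127 to 575 and 543, and the forkhead gene Foxq1, from 136 and 169 to 673 and 658. Snai3 rose 2.55-fold to 160.0 and 137. Zeb1, a repressor of epithelial genes, rose by only 0.35 ± 0.08 on the log2 scale. Snai2, the gene of SLUG, was the 1 that fell, from 218 and 225 to 157 and 163, a call lost in 7 of 20 alternatives, those without any 1 of the 4 WT libraries included (limma adjusted p up to 0.146). Of epithelial transcription and splicing factors 3 of 13 rose and 4 fell (2 without WT SB505124 replicate 2). The ETS factor genes Elf3 and Ehf rose, Elf3 from 422 and 479 to 2239.9 and 2224 and Ehf from 46.6 and 42.1 to 139 and 169. Klf5, a zinc finger factor of epithelial growth, fell from 1316 and 1449 to 378 and 437, and Foxa1 from 299 and 322 to 172 and 176. Genes with an epithelial role thus moved in both directions within the same libraries.

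Among AP-1 subunits 6 of 15 rose and 6 fell. Junb rose 5.59-fold, from 2651 and 2655 to 18619 and 11839.7; Fosl1, the FRA-1 gene, fell from 537 and 594 to 311 and 229. Immediate early genes, which answer to growth factors within the hour, divided as well, 9 of 25 higher and 9 lower. Arc rose 24.4-fold to 94.7 and 74.3, Rhob 3.04-fold to 5667 and 5512 and Cyr61, a matricellular gene, 2.05-fold to 28456 and 24954. Dusp1, a phosphatase of stress kinases, fell from 1915 and 1750.3 to 557 and 568, and Zfp36, which encodes an mRNA decay factor, from 638 and 746 to 393 and 369. Of the Krüppel-like and SP factors 3 of 15 rose and 5 fell. Klf10, known as TGFβ-inducible early gene, rose 1.94-fold to 4681 and 4705, and Klf3, a repressor, fell 2.96-fold to 566 and 525.

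Of feedback inhibitors and outputs of MAP kinases 11 of 22 fell and 7 rose. The ERK phosphatase gene Dusp6 went from 4518 and 4568 to 2374 and 2284 and the ERK feedback gene Spry1 from 564 and 567 to 141 and 136. Dusp2 went the other way, from 2 reads to 62.1 and 49.1 (ratio 55.5, interval 14.97 to 464), and Dusp7 rose 1.99-fold. Among EGF family ligands and receptors 5 of 18 rose, but 3 without either WT SB505124 replicate or without WT TGFβ replicate 1, and 5 fell. Areg, an EGF receptor ligand, rose from 2772 and 2756 to 4722 and 4773.

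Other growth factors and their receptors were the list with the most 2-fold rises: 19 of 33 tested members rose, 10 of them at least 2-fold, and 5 fell (median 0.50). Of the genes of platelet-derived growth factor chains, Pdgfb rose from 2042 and 2021 to 10105 and 8097 and Pdgfa from 608 and 548 to 2751 and 2362. Pdgfc and Pdgfd were tested and not called. Ctgf, a matricellular growth factor gene, went from 15829.9 and 14774 to 71242 and 65439. Mst1r, the receptor kinase RON, rose 6.69-fold to 7683 and 6467. Kitl, the ligand of KIT, fell from 5056 and 5048 to 2358 and 2266.

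In insulin and PI3K signalling 8 of 31 rose and 11 fell, and 7 fell with transcript length adjusted. The insulin receptor substrates fell, Irs1 3.96-fold to 109 and 111 and Irs2 2.61-fold to 371 and 313. Ddit4, an inhibitor of mTORC1, rose from 489 and 496 to 2768 and 2469. Of chemokines and cytokines 9 of 24 rose and 5 fell. Csf2, the gene of GM-CSF, rose from 33.5 and 34.0 to 188 and 183, while Cxcl1, Cxcl5 and Ccl20 gave the large falls described above. NF-κB inhibitors and adaptors stayed near the background, 4 of 21 higher and 5 lower, with 2 higher when WT SB505124 replicate 1, WT SB505124 replicate 2 or WT TGFβ replicate 1 was left out and 3 lower without WT SB505124 replicate 2. Cd40, the only member of this list below the level filter, was not counted. It was at 0 in both WT SB505124 libraries and at 23.2 and 13.7 in the WT TGFβ libraries.

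NOTCH genes changed in both directions, 6 of 22 up and 7 down (4 down with transcript length adjusted). The ligand gene Jag1 rose 3.92-fold, from 2593 and 2494 to 10307 and 9659, and Dll1 from 11.2 and 9.01 to 74.7 and 43.4. The receptor genes parted, Notch2 rising to 4692 and 4399 from 2716 and 2617 and Notch1 falling to 336 and 271 from 816 and 676. Of WNT ligands, receptors and targets 7 of 23 rose and 5 fell (3 without WT SB505124 replicate 1). The ligand genes Wnt9a, Wnt7b and Wnt7a rose 6.35-fold, 2.56-fold and 1.94-fold. YAP and TEAD targets split into 10 higher and 13 lower of 27 (8 lower with transcript length adjusted). F3, Ctgf and Cyr61 rose, as did Nuak2, a kinase gene, from 795 and 753 to 2866 and 2776. Ankrd1, often used as a readout of YAP, fell from 20334 and 20145 to 10806 and 11359.6.

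Among matrix proteins 7 of 32 rose and 7 fell, shares near the background; 4 fell without WT SB505124 replicate 1 or without WT TGFβ replicate 2. The rises were led by collagens. Col1a1 went from 37.5 and 33.0 to 498 and 349, Col7a1, the anchoring fibril collagen, from 374 and 289 to 2369 and 1658, and Col16a1 from 517 and 418 to 1723 and 1065. In each of these collagens WT TGFβ replicate 1 was the higher of the TGFβ libraries. The summed level of 8 fibroblast markers went with Col1a1, which is one of them: it was 164 in each SB505124 library and 669 and 514 under TGFβ, and Col1a2 and Col3a1 stayed at 0 to 3.00 in the 4 libraries. Pdgfra, another of the markers, was called higher too. The part of other cells was not tested, and in bulk samples more cells of a type and more RNA per cell cannot be told apart. Lamc1, a laminin chain gene, fell from 15483 and 14778 to 8739.7 and 8226. Of matrix enzymes and genes of glycan synthesis 18 of 39 rose and 7 fell. Has3, another hyaluronan synthase, went from 38.5 and 31.0 to 173 and 149.7, and the metalloprotease inhibitor gene Timp1 from 3849.8 and 3498 to 6553 and 6052. The collagenase gene Mmp13 fell from 11049.6 and 11139.5 to 5452 and 5498. Of plasminogen activators, serpins and related proteases 6 of 20 rose and 2 fell. Prss46, a serine protease gene, had no reads under SB505124 and was at 58.9 and 42.3 under TGFβ, at least 33.7-fold higher with 3 reads set over the SB505124 group. The tissue activator gene Plat fell from 3818 and 3709 to 2651 and 2391.

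Tight junction genes gave 6 rises and 9 falls among 26 tested. Beside Cldn4, Cldn23 rose 6.38-fold to 42.1 and 52.6. Cldn2, the pore-forming claudin and the most abundant of those named here, fell from 20726 and 20095 to 12266 and 11469, the junction scaffold gene Cgn from 4898 and 4499.9 to 2768 and 2453 and the polarity gene Pard6b from 2216 and 2409 to 1201 and 1191. For adherens junctions and desmosomes 8 of 24 rose and 8 fell; 4 and 5 fell without WT SB505124 replicates 1 and 2, and 4 and 3 with transcript length and gene span adjusted. The nectin gene Pvrl1 rose 3.55-fold to 1221 and 1007 and the plakophilin gene Pkp1 2.99-fold to 217 and 221. Cdh2, the N-cadherin gene and a usual marker of the mesenchymal state, fell from 7235 and 7190.4 to 4171 and 4203. Of keratins and other intermediate filaments 8 of 16 rose (5 without WT SB505124 replicate 2) and 1 fell, Lmnb2, whose call was lost without either WT SB505124 replicate. Krt18 went from 78908 and 83142 to 110723 and 118093 and Krt8, its partner, from 59377 and 64026 to 90525 and 86844. Krt20 rose 2.62-fold. Krt14 and Krt16, close relatives in sequence between which reads can be split, rose from under 10 to 46.3 and 37.7 and 44.2 and 48.0. Krt5 was called higher on 1 read against 5, a ratio of 5.44 with an interval of 0.609 to 257, and the call was lost in 6 of 19 alternatives, 2 of them without WT SB505124 replicate 2 or WT TGFβ replicate 2. The summed level of the luminal markers, nearly all of it from keratins, was 166720 and 177031 under SB505124 and 230585 and 234143 under TGFβ, and that of basal markers 811 and 805 and then 577 and 539. Nearly all of the basal sum came from Mylk, the myosin light chain kinase gene, named here after its values were seen, which fell from 789.6 and 779 to 514 and 480.0, while the other tested basal markers, Krt14 and Krt5, were called higher. No marker of the 6 cell types that is in the table was at 0 in all 8 libraries. Genes without reads may have been left out when the table was made, so this does not show that the cell types were present. The markers Cldn3, Pgr, Emcn, Plin1 and Lep are not in the table.

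Integrins and focal adhesion genes rose in 13 of 34 cases, 8 at least 2-fold, and fell in 7; without WT SB505124 replicate 1, WT SB505124 replicate 2 or WT TGFβ replicate 2, 4 fell. Tns1, a tensin that ties integrins to actin, went from 149 and 135 to 1012 and 850.3, Fermt1, a kindlin, from 1557 and 1641 to 6330.3 and 6558, and the adhesion scaffold gene Nedd9 from 220.0 and 262 to 998 and 1089. For regulators of actin and small GTPases 16 of 48 rose (10 without WT SB505124 replicate 1) and 11 fell. Rhob rose, while Rnd3 and Rnd1, which encode atypical small GTPases, fell from 1342 and 1282 to 515 and 598 and from 1578 and 1614 to 674 and 681.

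TGFβ arrests the growth of epithelial cells, and 9 of 30 genes of the cytostatic programme rose and 11 fell. Cdkn1a, the p21 gene, rose from 5070.2 and 5004 to 9281 and 10006, and Gadd45g, a growth arrest gene, 3.29-fold to 2344 and 1704. The cyclin gene Ccnd2 fell from 8795 and 8967 to 3775 and 4048. Of genes of mitosis and DNA replication 11 of 32 fell and 2 rose (1 without WT SB505124 replicate 1, WT SB505124 replicate 2 or WT TGFβ replicate 2), none 2-fold. The mitotic kinesin genes Kif20a, Kif11 and Kif23 fell by 0.93, 0.73 and 0.63 on the log2 scale. Of p53 targets 6 of 25 rose and 11 fell; without WT SB505124 replicate 1, WT SB505124 replicate 2 or WT TGFβ replicate 1, 5, 6 and 7 fell. Mdm2, the p53 ligase, rose 1.52-fold and Sesn2 fell 1.89-fold.

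Regulators of chromatin and mRNA were among the lists with the most falls. Of ARID genes, histone demethylases and co-activators 24 of 36 fell and 7 rose (median -0.36), and the risers Arid3a, Arid5a and Kdm6b, a demethylase of histone H3 lysine 27, were among the strongest responses. Kdm6b went from 709.5 and 625 to 3097 and 2305. Of mRNA decay and RNA-binding regulators 14 of 26 fell and 4 rose; the latter count was 2 without WT SB505124 replicate 1 or WT TGFβ replicate 2 and 7 without WT TGFβ replicate 1. Xrn1, a cytoplasmic exonuclease that degrades decapped mRNA, fell from 462 and 474 to 156 and 192, and the TTP family gene Zfp36l2 rose from 2644 and 2741 to 4826 and 5032 while its relative Zfp36l1 fell to 1060.0 and 1055 from 1712 and 1723.

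In the aryl hydrocarbon receptor battery 9 of 17 fell and 3 rose; without WT SB505124 replicate 1 and 2 the latter count was 1 and 5. The receptor gene Ahr itself went from 1795 and 1767 to 1085 and 1116, together with the large fall of Cyp1a1. Circadian and glucocorticoid-responsive genes gave 5 rises (3 without WT SB505124 replicate 1) and 10 falls among 22. Bhlhe40, a clock repressor also known as a hypoxia and TGFβ target, went from 1475 and 1555 to 9261 and 9870.4. In the integrated stress response 12 of 29 fell and 5 rose (3 without WT SB505124 replicate 1), Ddit3, the CHOP gene, going from 544 and 505 to 253 and 250.3. Of chaperone and heat shock genes 12 of 30 fell and 7 rose (4 without WT TGFβ replicate 1). Of sterol and fatty acid genes 19 of 38 fell and 4 rose. Plin2, a coat protein of lipid droplets, rose 2.02-fold to 9572 and 10355. Of interferon response genes 3 of 28 rose (1 without WT SB505124 replicate 1) and 4 fell; Ifit2 fell from 1191 and 1248 to 460.0 and 574. Of ion, sugar and amino acid transporters 13 of 29 fell and 6 rose, and of G-protein signalling genes 12 of 25 rose and 6 fell. The niacin receptor gene Hcar2 went from 2 reads to 61.1 and 70.9 (ratio 65.3, interval 17.7 to 545) and the adhesion receptor gene Gpr56 rose 6.10-fold to 2874 and 2314.

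Of cytosolic ribosomal protein genes 31 of 35 rose and none fell, by small amounts (median 0.38). Rpl32 went from 18422 and 19825 to 25492 and 30097 and Rps20 from 15064 and 16158 to 21612 and 23628. Nuclear genes of the mitochondrial respiratory chain followed, 20 of 32 higher and 1 lower (median 0.29), with Cox7a2 going from 3655 and 3798 to 5103 and 5936. Without WT SB505124 replicate 1 the counts higher were 19 and 12, and the call of Ndufs1, the respiratory gene that fell, was lost without either WT SB505124 replicate or WT TGFβ replicate 1. These are short genes, and the change under TGFβ moved with length. The median log2 fold change of tested coding genes was 0.35 for the 563 with a transcript under 1000 bases and -0.29 for the 1644 with at least 6000 bases, and 0.20 for the 1229 genes spanning under 5 kb and -0.22 for the 541 spanning at least 200 kb. In the KO-labelled libraries the same medians were 0.12 and -0.17, and 0.10 and -0.12. Differences between WT replicates, replicate 2 over 1, were 0.09 and -0.03 under SB505124 and 0.09 and 0.01 under TGFβ for the same transcript classes. With the change adjusted for transcript length, 9 ribosomal and 6 respiratory genes were called higher, and 14 and 15 with gene span adjusted. Of the 2-fold changes, 443 of the 455 raised and 286 of the 295 lowered genes kept their call with transcript length adjusted. Whether this relation lies in the cells or in the libraries was not tested.

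**Figure D4:**
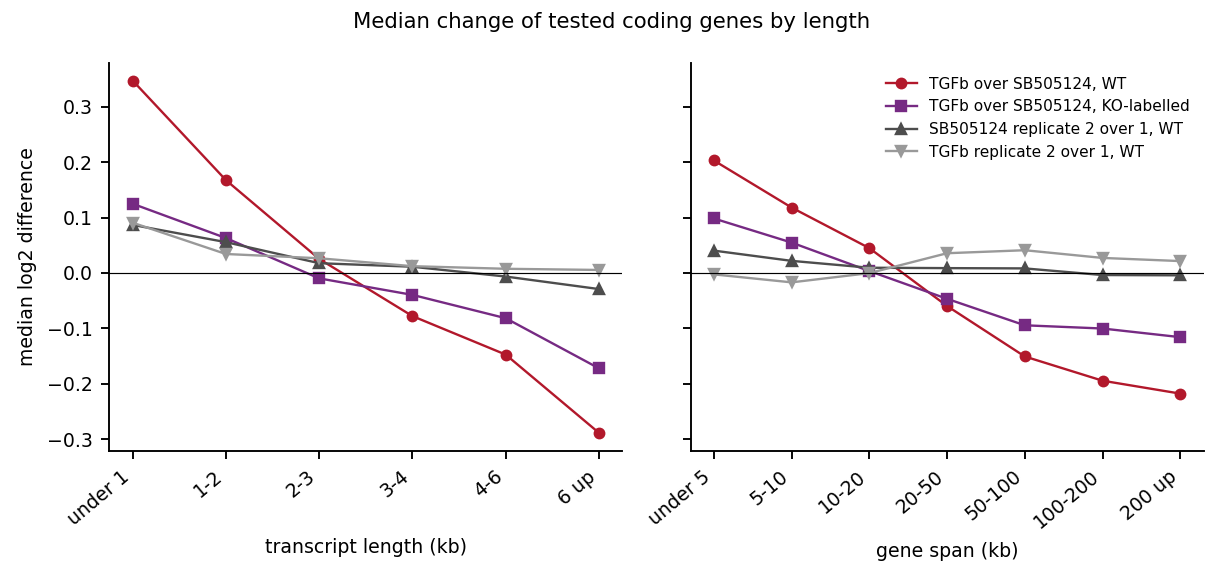
The y axis gives the median log2 difference of tested coding genes in classes of transcript length (left) and gene span (right), both in kb. In WT cells the median goes from 0.35 to -0.29 over transcript length under TGFβ and in KO-labelled cells from 0.12 to -0.17, while differences between WT replicates stay between -0.03 and 0.09 on both axes.

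Gene structure differed between the classes of response. Raised genes at the 2-fold threshold had a median span of 21.4 kb and lowered ones of 39.0 kb, against 24.4 kb for all tested coding genes. Genes with 1 or 2 exons made up 11.8% of the raised and 13.5% of the lowered genes, against 6.47% of all. Genes called higher by less than 2-fold were the shortest, with a median span of 14.5 kb and transcript of 2140 bases, and those called lower by less than 2-fold the longest, with 44.1 kb and 4644 bases. The coding genes among the 2-fold genes were also expressed at lower levels. Their median means over the WT libraries were 155 and 169.5, against 951 for all tested coding genes.

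Some of the raised genes are neighbours. Of 12347 pairs of tested genes next to each other, 53 had both members at least 2-fold higher, 16 both at least 2-fold lower and 14 one of each. Of single tested genes 3.64% and 2.36% were at least 2-fold higher and lower. The number of pairs that these shares alone would give was not computed. Pairs of the same direction made 48 runs of raised genes with 101 members and 14 runs of lowered genes with 30. Lmcd1 with 5031434C07Rik spans 56668 bases, the span of Lmcd1 alone, and another run holds Krt5, called on 1 read against 5. Among the runs were Krt14 with Krt16, Prss22 with Prss27, Foxq1 with Foxf2, Bmp2 with Fermt1 (over 658497 bases), and Col7a1 with Ucn2 and Pfkfb4. In the last, the glycolytic regulator gene Pfkfb4 went from 136 and 132 to 467 and 465. Foxa2 and Thbd fell together, Thbd, the thrombomodulin gene, from 57.8 and 58.1 to 18.9 and 11.4, though its call was lost without WT SB505124 replicate 1, WT SB505124 replicate 2 or WT TGFβ replicate 2 (limma adjusted p up to 0.114). Another run held a gene with no established name: 2310007B03Rik, next to Sned1 (1855 of whose exon bases overlap Mterfd2), went from 138 and 121 to 3564 and 3375, 26.6-fold, a rise that would stand among the 15 largest above but for its provisional name.

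Rreb1 transcripts were not lower in the KO-labelled libraries, at 1327 and 1343 under SB505124 and 2481 and 2241 under TGFβ, above both WT libraries of the same treatment. These totals per gene do not check the label, since they do not show where in the gene the reads fall. The response in KO-labelled cells was compared with that of WT cells by the interaction term of the same fit, which called 352 of 12498 genes (2.82%). Of the 44 genes named for their role, size of change or level, 9 were called. Most of the 44 were chosen by their WT change, which the interaction term also uses. Their share is therefore partly set by the choice and is not to be read against that of all genes. Snai1 had the largest difference. In KO-labelled cells it was 1.86 and 3.45 under SB505124 and 8.66 and 17.4 under TGFβ, a log2 fold change of 1.90 ± 0.33 against 5.29 ± 0.33 in WT, so the response was smaller by 3.39 ± 0.47 (limma adjusted p = 0.000311). Il11 was at 15.8 and 18.1 and 1259 and 1203, and its response was larger by 1.54 ± 0.22 (limma adjusted p = 0.000383). Ctgf rose by 1.11 ± 0.09 in KO-labelled cells, to 40488 and 37060.4, less than in WT (difference -1.04 ± 0.13, limma adjusted p = 0.000142). Id2 fell less, to 10814 and 10562 from 20783 and 20533 (difference 0.91 ± 0.11, limma adjusted p = 0.000138).

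Dlc1 was lower in KO-labelled cells with the receptor blocked, 99.6 and 83.8, and at 71.2 and 52.3 under TGFβ, a log2 fold change of -0.57 ± 0.18 (difference 1.51 ± 0.26, limma adjusted p = 0.00213). Arid5b and Ccl20 fell less than in WT, by differences of 0.96 ± 0.16 and 0.63 ± 0.11, Cxcl5 fell more, by -0.49 ± 0.10, and Arid5a rose more, by 0.87 ± 0.20, a call that 7 of 19 alternatives lost, among them those without WT SB505124 replicate 1, WT TGFβ replicate 2 or either KO TGFβ replicate. That of Cxcl5 was lost without either WT SB505124 replicate or KO TGFβ replicate 1. For Smad7 the log2 fold changes were 2.71 ± 0.08 and 3.02 ± 0.08, for Pmepa1 3.24 ± 0.08 and 3.19 ± 0.08 and for Cldn4 7.86 ± 0.42 and 8.21 ± 0.42, in WT and KO-labelled cells, and none of these differences was called. Has2, at 2.89 and 5.13 in the KO-labelled TGFβ libraries, missed the threshold (difference -3.16 ± 0.97, limma adjusted p = 0.0903). The number of genes called by the interaction was unstable: it was 141 and 168 without WT SB505124 replicate 1 and 2, 1027 without WT TGFβ replicate 1 and 150 without KO TGFβ replicate 1. The SB505124 libraries of the KO-labelled cells also started from other levels for several of these genes, as the values show.

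**Figure D5:**
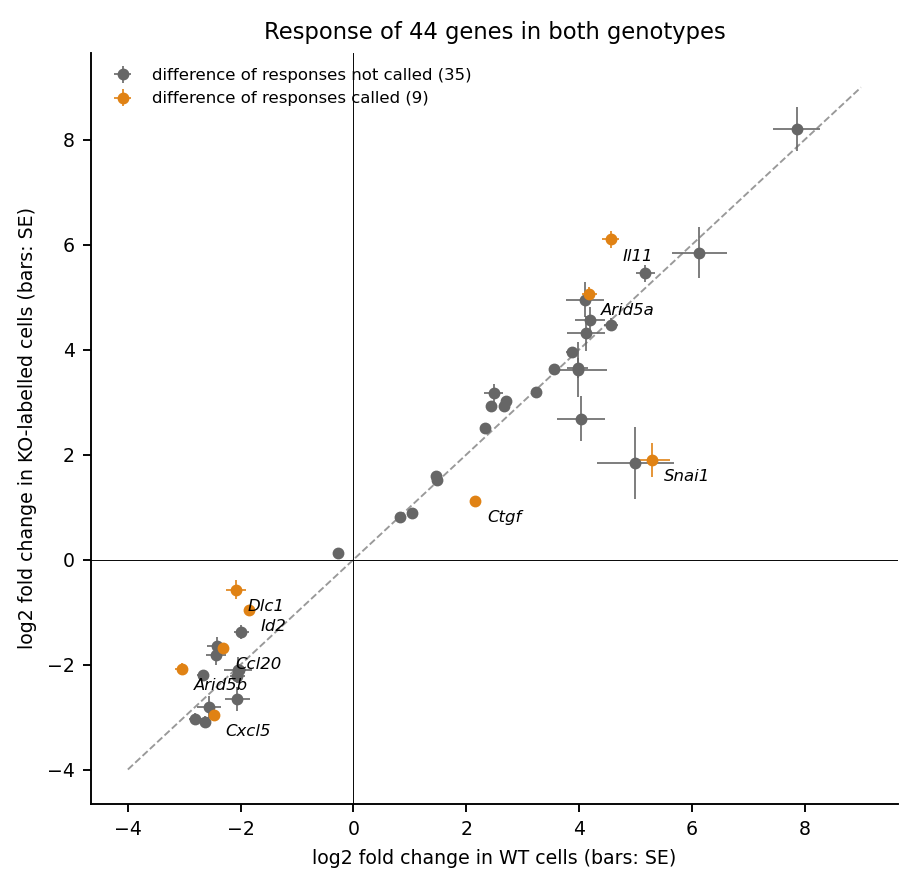
Each point is 1 of 44 genes named for role, size of change or level; the x axis is its log2 fold change, TGFβ over SB505124, in WT cells and the y axis that in KO-labelled cells, with bars of 1 SE, and the dashed line marks equal responses. The 9 orange points are genes whose difference of responses was called; Snai1 and Ctgf lie below the line and Il11 above it.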

How the data were processed

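Total RNA of the 8 samples was sequenced from TruSeq RNA v2 libraries, per the labels' protocols; this kit keeps no strand information. The submitters' processing notes name FastQC 0.11.5, HTSeq 0.6.1p1, DESeq2 3.4 and the build mm10; the aligner is not given in the sources used here. The authors deposited a signal value for each gene in each library, made by dividing read counts by a size factor. Within a library all values were multiples of a single step (100% within 0.01 reads), from which reads (25144204 to 32143113 per library) and size factors (0.875 to 1.16) were recovered. In WT SB505124 replicate 2 the step lies so near 1 that the deposited values alone are a weak check of it, and the count tests, which are alternatives only, rest on it. Rows with 26 symbols turned into dates and 4 rows sharing a name were tested but not named.

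Genes with a mean of at least 10 over the 8 libraries (12498) were fitted as log2(value + 1) in R 4.3.3 with limma 3.58.1, allowing a variance trend, in 4 group means over all 8 libraries, with 4 residual and 14.3 prior degrees of freedom. The pseudocount of 1 understates fold changes of low genes. Contrasts were TGFβ against SB505124 in WT cells and the KO minus WT difference of that response. Alternatives were other pseudocounts, filters and scalings, edgeR 4.0.16 and DESeq2 1.42.0 on recovered reads, the replicate number as a block, and each library left out; adjustments for transcript length and gene span were added after seeing the data. Where a group had no reads the fold is a bound with 3 reads over the group, and with 1 to 3 reads the ratio has an exact 95% interval; both cover counting error only. Positions come from GENCODE M21 on GRCm38, the assembly of mm10, where 98.6% of symbols matched 1 gene, and overlaps of at least 50 exon bases are named.

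The members and the gene lists were chosen with earlier results of these data known. Named genes were 9 pathway genes whatever their values, the 15 largest rises and falls called with a mean of at least 100 in the higher group and no overlap of groups (predicted genes with provisional names, dates and duplicate names left out), the 10 most abundant genes called at least 2-fold, from each list its 5 smallest p-values at most and its strongest rise and fall, and runs of neighbouring genes called at least 2-fold the same way. A few of the genes so chosen are left out of the text.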

Additional observations from a re-analysis of the deposited data

Results flagged for a closer look

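For 9 of the named genes the response to TGFβ differed between KO-labelled and WT cells by the limma interaction test. In log2 units, KO minus WT, the differences were -3.39 for Snai1, 1.54 for Il11, -1.04 for Ctgf, 0.91 for Id2, 1.51 for Dlc1, 0.96 for Arid5b, 0.87 for Arid5a, 0.63 for Ccl20 and -0.49 for Cxcl5. The calls of Il11, Ctgf and Id2 held in all 19 alternatives. Those of Snai1, Arid5b and Ccl20 were lost in 1, that of Dlc1 in 2, that of Cxcl5 in 4 and that of Arid5a in 7. For Snai1 the alternative without a variance trend gave an adjusted p of 0.0612.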

How the results depend on the processing

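Counts of genes called in WT cells stayed within 1.5 times their main values (2520 higher, 2896 lower, 455 and 295 at least 2-fold) under the alternatives tried, except that a filter at a mean of 50 left 293 genes at least 2-fold higher, with fewer genes tested. Leaving out 1 library gave 3684 to 5565 called genes against 5416. The KO minus WT difference, called for 352 genes, was called for 134 without a filter, 47 without a variance trend and 141 to 1027 with 1 library left out; the cause was not tested. Replicate numbers are shared between groups but nothing ties them to a culture or day. Deviations of same-numbered libraries correlated by 0.198 between the WT groups and by 0.102 between the KO groups, and between -0.199 and -0.025 across genotypes. With the replicate block, 5359 genes were called in WT (2502 higher, 2857 lower, 447 and 292 at least 2-fold) and 252 by the difference. Of 332 named genes 293 were called in every alternative and 39 were lost in at least 1, none with a change of sign. Of 1680 list counts 1600 stayed within 1.5 times. Totals of 25144204 to 32143113 reads leave genes near the filter with few reads.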
